A study of Homo sapiens with 15 samples.

Results

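The mRNAs described here encode the heat shock proteins and their DNAJ co-chaperones, the folding machinery of the human cell. The members were every protein-coding gene whose symbol begins with HSPA, HSPB, HSPD, HSPE, HSPH, HSP90 or DNAJ and that carried 10 or more counts in 2 or more replicates under every one of the 5 conditions. Of 77 genes with such a symbol, 64 passed (24 HSP and 40 DNAJ genes), out of 16612 genes that passed the same filter in the whole data set. The prefix HSPB also takes in 3 genes that encode no small heat shock protein, namely HSPB11, HSPBP1 and HSPBAP1.

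Poly(A) RNA was sequenced from translation-competent cytosolic extracts (CEs) of U2OS, a human osteosarcoma cell line labelled wild type, in 15 libraries of 5 groups with 3 biological replicates each. Input libraries held extract that was not pelleted. The other 4 groups held material spun down at 14000 g for 10 min at 4 °C and washed with PBS after a 2 h translation reaction at 37 °C, which was left untreated (mock) or received 250 nM double-stranded RNA (dsRNA), 2 µg/ml silvestrol or 1% polyethylene glycol (PEG). In textbook terms dsRNA activates the kinase PKR, silvestrol blocks the helicase eIF4A, and PEG is a crowding agent. No stressed cells were sequenced, and the mock reaction was pelleted as the treated ones were. A pellet at this speed can hold condensates and other heavy material, and each library gives shares of its own RNA, so that the amount of an mRNA pelleted was not measured. The libraries came from extract and not from counted cells, so values per cell were not measured.

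HSP70 proteins (HSPA genes) bind exposed hydrophobic stretches of unfolded chains and release them in a cycle driven by ATP. J-domain proteins, encoded by the DNAJ genes and a few others, deliver clients to HSP70 and trigger its ATP hydrolysis, while exchange factors such as the HSP110 proteins reopen the cycle. HSP90 proteins act later, on nearly folded clients such as kinases and steroid receptors, and small heat shock proteins (HSPB genes) hold unfolding proteins without ATP. The chaperonin of HSPD1 and HSPE1 folds proteins inside mitochondria. Many of these genes are switched on by the heat shock factor HSF1 after heat, and those of the endoplasmic reticulum (ER) by the unfolded protein response. HSP70 and HSPB8 proteins are known to help clear misfolded proteins from stress granules, whereas the data here are on the mRNAs.

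What unites the DNAJ proteins is the J domain, whose His-Pro-Asp tripeptide is needed to stimulate HSP70. Codons for this tripeptide were found in the coding sequence of 39 of the 40 DNAJ members, all but DNAJB13, in the longest coding transcript of each gene in GENCODE release 29. The 27 bases around it are shown for 6 members whose mRNAs differed in the pellets described below, with the 9 bases that encode His-Pro-Asp in capitals (GRCh38, 5′ to 3′ on the coding strand).
DNAJC2 (chr7:103327714-103327740, minus strand): ttaaaacatCACCCAGACaaacggaaa
DNAJC5 (chr20:63929322-63929348, plus strand): ttgaaatatCACCCCGACaagaacccc
DNAJA1 (chr9:33026575-33026601, plus strand): ttgaagtacCATCCTGATaagaaccca
DNAJC8 (chr1:28210605-28210631, minus strand): atcttggtgCATCCTGACaaaaatcaa
DNAJC13 (chr3:132495131-132495157, plus strand): caaaagtacCACCCTGATaagaatcca
DNAJC27 (chr2:24947688-24947714, minus strand): gtgcttcttCACCCTGACaaatgtgta
DNAJC2 and DNAJC5 mRNAs were enriched in the mock pellets, those of DNAJA1 and DNAJC8 were depleted there, and those of DNAJC13 and DNAJC27 were depleted in the PEG pellets. These 6 were picked for their directions, and 39 of the 40 DNAJ members have the codons, so a link between codons and direction was not tested.

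Close paralogs matter for whether reads can be told apart. The cytosolic HSP90 genes HSP90AA1 and HSP90AB1 shared 76.15% of 2172 aligned coding bases, with a longest identical run of 23 bases. Their last 60 coding bases before the stop codon encode the tail that binds co-chaperones, and the 16 positions at which they differ are given in capitals.
HSP90AA1 (chr14:102081715-102081774, minus strand): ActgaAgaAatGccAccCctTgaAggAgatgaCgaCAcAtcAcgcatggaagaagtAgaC
HSP90AB1 (chr6:44253536-44253595, plus strand): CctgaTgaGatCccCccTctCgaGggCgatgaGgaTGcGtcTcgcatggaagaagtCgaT
The inducible HSP70 genes HSPA1A (chr6:31815464-31817946) and HSPA1B (chr6:31827735-31830255) lie next to each other on chromosome 6 and differed at 4 of 1923 coding bases, with an identical run of 1709 bases. Most reads from their coding sequences cannot be assigned to either gene, so their counts are uncertain as separate values.

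Libraries held 15341973 to 46939993 counts assigned to genes, and those of PEG, at 15341973 to 25675182, were smaller than most others. Of 8 markers of U2OS or bone-forming cells, 7 had at least 731 counts in every library, whereas COL1A2 had 1 to 10. Of 9 markers of blood, epithelial, liver and nerve cells, EPCAM and SNAP25 alone reached 10 counts in every library. The nuclear RNAs MALAT1 and NEAT1 together took 737 to 1079 CPM (counts scaled to a library total of 1000000) in input, 987 to 1750.1 in mock and 535 to 1078 in PEG, and mitochondrially encoded RNAs took 0.369% to 0.473% of input, 0.974% to 1.23% of mock and 0.468% to 0.716% of PEG counts. The part of these differences in the results below was not tested. Scaling by library size alone, in place of the trimmed mean of M values (TMM), moved the all-gene median of the log2 fold changes to -0.36 for PEG against input and to -0.50 for PEG against mock, so values for PEG are relative to the typical gene.

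All levels below are CPM with library totals corrected by TMM. In input, member mRNAs ranged from 0.494 to 2076 CPM, with a median of 46.4, and all members together took 0.988% to 1.29% of the counts. Per kilobase of summed exon length, the most abundant were HSPB1 (751 CPM per kb), which encodes the small heat shock protein HSP27, and HSP90AB1 (697 CPM per kb). They were followed by HSPA8 (210.2), the constitutive HSP70, by HSPE1 (181), HSP90AA1 (173) and DNAJA1 (172), and by HSPD1 (134 CPM per kb). HSPE1, HSP90AA1 and DNAJA1 differed by less than their spread over the 3 input libraries.

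The members did not enter the pellets as 1 group. Differences are log2 fold changes with their standard error (SE) after the sign ±, and p-values were adjusted over all genes by the Benjamini-Hochberg procedure. Against input, edgeR's quasi-likelihood F test at an adjusted p under 0.05 called 10 of the 64 members enriched in the mock pellets (15.6%, against 17.6% of all genes tested) and 10 depleted (15.6%, against 15.8%). The dsRNA pellets had 10 enriched members (15.6%, against 21.1%) and 15 depleted (23.4%, against 19.6%), and the silvestrol pellets 11 (17.2%, against 19.4%) and 14 (21.9%, against 18.1%). In the PEG pellets 21 were enriched (32.8%, against 25.5%) and 12 depleted (18.8%, against 25.9%). These shares, from a fit that does not pair the replicates, are no result about the members as a whole. In mock, dsRNA and silvestrol they lay near the background. In PEG they lay further from it but moved with single libraries and with the scaling, as given below. The median log2 fold change of the members was -0.18, -0.14 and -0.16 in mock, dsRNA and silvestrol and 0.19 in PEG, where the median of all genes lay between -0.01 and 0.00.

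With the replicate number as a block the members called depleted rose to 29 in mock, 24 in dsRNA and 25 in silvestrol. These were 45.3%, 37.5% and 39.1% of the members, against 30.1%, 29.1% and 28.7% of all genes. Enriched were 14, 13 and 14 members (21.9%, 20.3% and 21.9%, against 32.5%, 31% and 30.8% of all genes). Beside members given below, the block added DNAJB2 and DNAJC25 to those enriched in mock and DNAJC7, DNAJC9, DNAJC18, DNAJC24 and DNAJC28 to those depleted there. Single libraries moved the counts without the block. Fits without 1 library, here and below, had no block. Depleted members in mock were 2 without mock replicate 2 or 3 and 6 without input replicate 3, in dsRNA 8 without dsRNA replicate 2 or 3, and in silvestrol 5 without silvestrol replicate 2 or 3 and 9 without input replicate 3. Enriched members in silvestrol were 6 without input replicate 2 or 3 and 7 without silvestrol replicate 2. In PEG they were 33 without input replicate 1 and 13 without PEG replicate 3. Shares of all genes in these fits are not given here, so these swings are no result about the members. By library size alone, the PEG split turned from 21 enriched and 12 depleted members to 13 enriched and 21 depleted (14.1% and 41.5% of all genes).

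**Figure D1:**
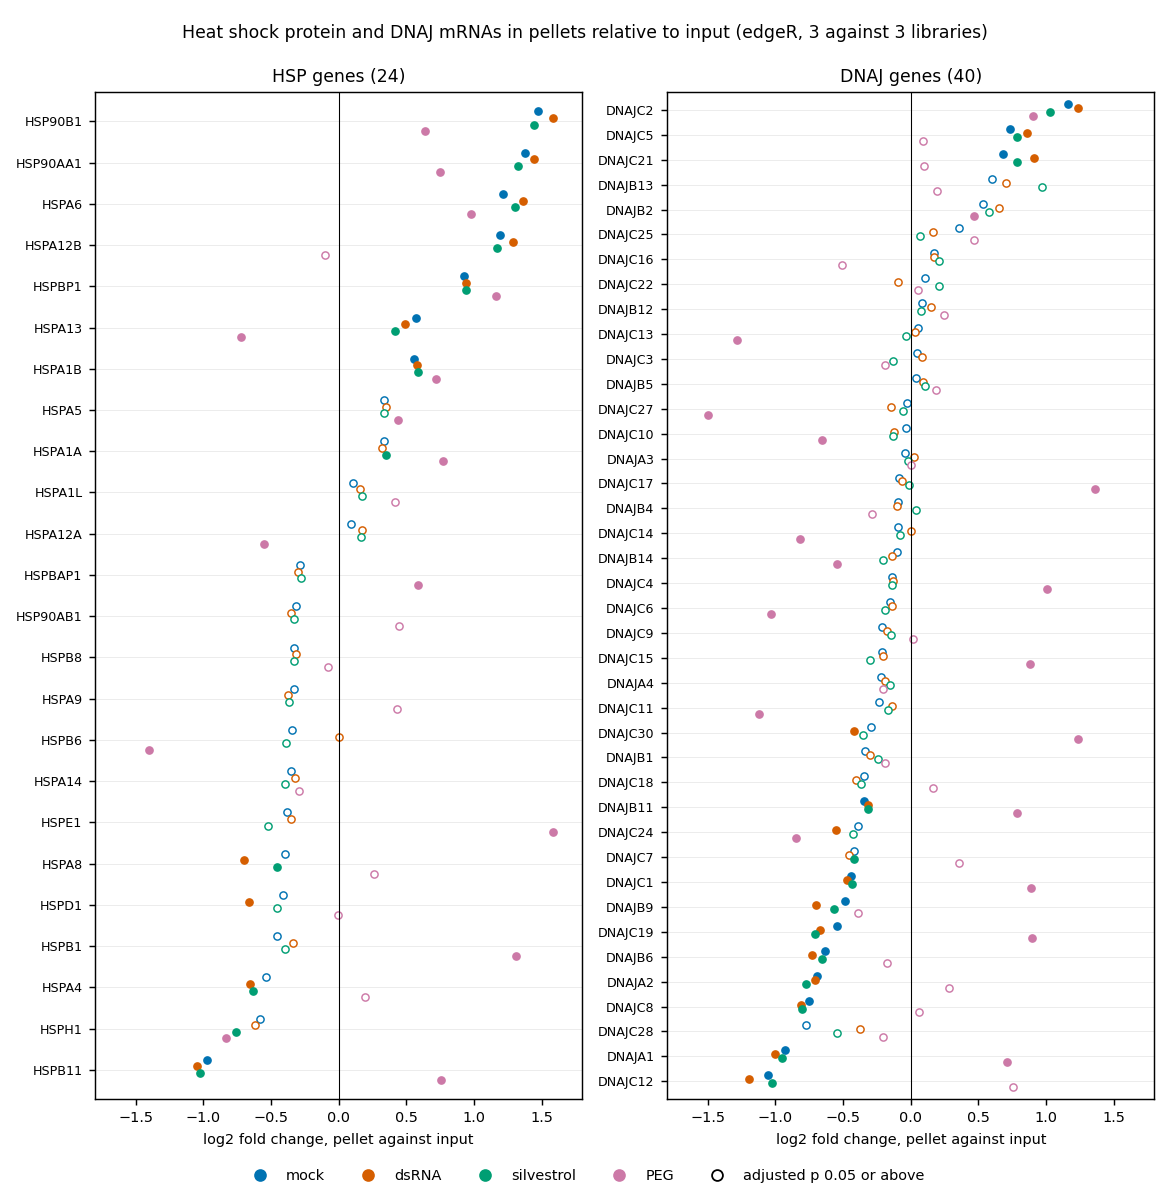
Log2 fold change of each of the 64 members (rows, HSP genes at the left and DNAJ genes at the right, ordered by the mock value) in 4 kinds of pellet against input, with filled points for an adjusted p under 0.05 and open points otherwise. The mock, dsRNA and silvestrol points of a gene lie close together, from HSP90B1 at 1.47 to DNAJC12 at -1.05 in mock, while the PEG points often lie on the other side of 0, as for HSPB11 and HSPA13.

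Among the HSP90 genes, HSP90AA1, the stress-inducible cytosolic form, and HSP90B1, its ER counterpart (GRP94), were enriched in all pellets, and the constitutive cytosolic form HSP90AB1 was not. HSP90AA1 (ENSG00000080824) was at 1247, 741 and 737 CPM in the 3 input libraries, at 2750.5, 1944 and 2193 in mock and at 2999, 2025 and 2196 in dsRNA. It was at 2734, 1926 and 2014 CPM in silvestrol and at 1420.0, 1413 and 1625 in PEG, and no pellet library overlapped input. The log2 fold change of HSP90AA1 was 1.37, 1.45 and 1.32 in the mock, dsRNA and silvestrol pellets (SE 0.25, 0.25 and 0.25, adjusted p = 0.0071, 0.0044 and 0.0063), and 0.75 ± 0.23 (adjusted p = 0.025) in PEG.

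HSP90B1 rose from 403, 288 and 299 CPM in input to 868, 816 and 993 in mock, 958, 899 and 1037 in dsRNA and 903, 831 and 907 in silvestrol, the largest rise of any member, and to 424, 470.5 and 604 in PEG. The rise was 1.47, 1.59 and 1.45 in the mock, dsRNA and silvestrol pellets (SE 0.17, 0.17 and 0.17, adjusted p = 0.0036, 0.0024 and 0.0024), and 0.64 ± 0.19 (adjusted p = 0.023) in PEG. HSP90AB1 had 2619, 1846 and 1763 CPM in input, 1982, 1488 and 1425 in mock and 2899, 2749.6 and 2626 in PEG, and its mock libraries overlapped input. Its log2 fold change was -0.31, -0.35 and -0.33 (adjusted p = 0.27, 0.17 and 0.21, or 0.0054, 0.016 and 0.047 with the replicate block). In PEG it was 0.45 ± 0.20 (adjusted p = 0.084), which passed with the block (adjusted p = 0.044). The PEG calls of HSP90AA1 and HSP90B1 were lost when PEG replicate 2 or 3 or input replicate 2 or 3 was left out (adjusted p up to 0.085 and 0.10) and when scaling was by library size (log2 fold change 0.42 and 0.30).

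**Figure D2:**
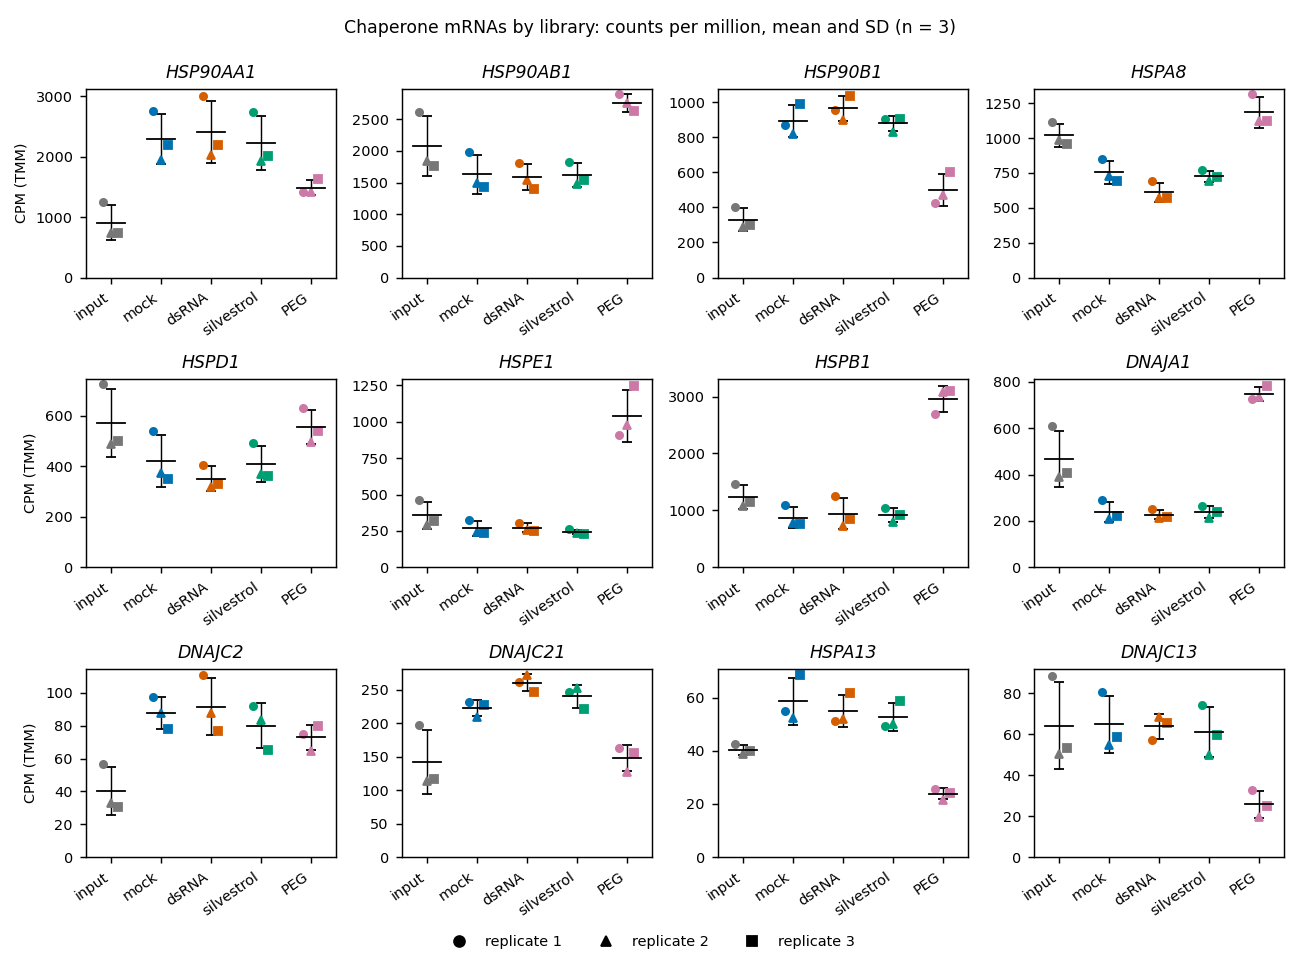
CPM of 12 member mRNAs in each of the 15 libraries (points, shaped by replicate number), with the mean and SD of each group (n = 3) and the vertical axis from 0. HSP90AA1 and HSP90B1 are lowest in input, HSPE1, HSPB1 and DNAJA1 are highest in PEG, and HSPA13 and DNAJC13 are lowest in PEG.

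The ratio of 2 mRNAs within a library does not depend on the scaling. HSP90AA1 counts were 0.476, 0.401 and 0.418 times those of HSP90AB1 in input, 1.39, 1.31 and 1.54 times in mock, and 1.66, 1.32 and 1.56 times in dsRNA. The ratio was 1.37 ± 0.111 (mean and SD, n = 3) in silvestrol and 0.490, 0.514 and 0.619 in PEG. In every pellet group all 3 libraries lay above input (exact two-sided permutation test, p = 0.1, the smallest that 3 against 3 libraries can give). The PEG ratios lay below all mock ratios by 1.39 on the log2 scale (exact permutation p = 0.1). This pair and the others given as ratios were chosen after their values were seen, and 8 comparisons were made for each of 4 pairs.

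**Figure D3:**
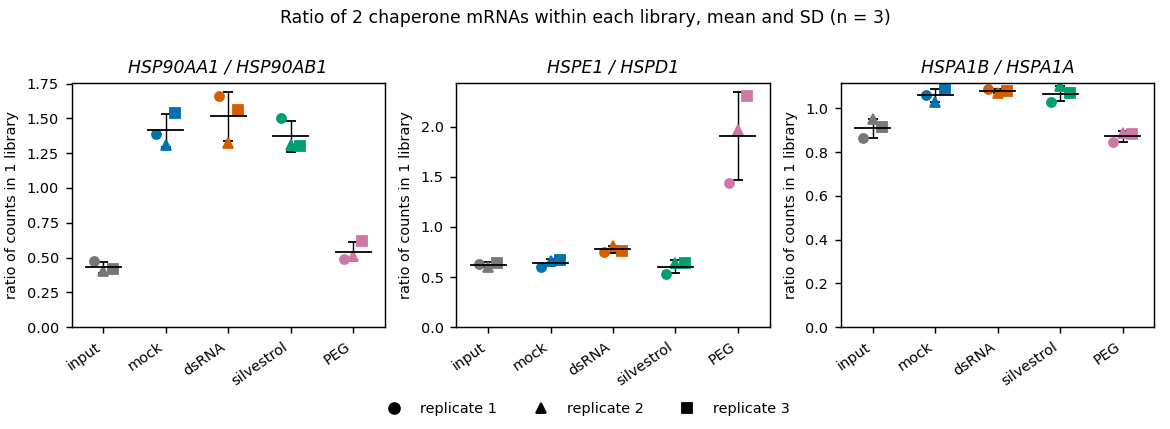
Ratio of the counts of 2 genes in the same library, for 3 pairs, with a point per library and the mean and SD of each group (n = 3). HSP90AA1 over HSP90AB1 is at least 1.30 in the mock, dsRNA and silvestrol pellets and below 0.62 in input and PEG, and HSPE1 over HSPD1 is between 1.44 and 2.31 in PEG and at most 0.811 elsewhere.

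Of the 14 HSPA genes 12 were kept, and 4 of them were enriched and none depleted in mock (edgeR, against 17.6% and 15.8% of all genes). In dsRNA 4 were enriched and 2 depleted (against 21.1% and 19.6%), in silvestrol 5 and 2 (19.4% and 18.1%), and in PEG 4 and 2 (25.5% and 25.9%). With the replicate block HSPA1A and HSPA5 were also enriched and HSPA4, HSPA8, HSPA9 and HSPA14 depleted in mock, where 32.5% and 30.1% of all genes passed. HSPA6, an HSP70 made almost only under strong stress, was near the filter at 34 to 172 counts per library, and its level was 1.53, 1.33 and 1.30 CPM in input and 2.49, 3.70 and 3.16 in mock. It was enriched by 1.21, 1.36 and 1.30 in the mock, dsRNA and silvestrol pellets (SE 0.22, 0.22 and 0.20, adjusted p = 0.0075, 0.0034 and 0.0033) and 0.98 ± 0.24 (adjusted p = 0.0087) in PEG. HSPA12B, a distant HSP70 relative described in endothelial cells, had 8.30, 6.75 and 8.80 CPM in input and 19.1, 15.5 and 18.6 in mock, without overlap. It was enriched by 1.19, 1.28 and 1.17 in the mock, dsRNA and silvestrol pellets (SE 0.15, 0.19 and 0.23, adjusted p = 0.0036, 0.0029 and 0.0071), and its value in PEG was -0.10 ± 0.17 (adjusted p = 0.65). Its paralog HSPA12A was at 0.09 ± 0.15 (adjusted p = 0.67) in mock and was depleted in PEG, at -0.55 ± 0.13 (adjusted p = 0.0082).

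The heat-inducible HSPA1B was enriched in every pellet, with 94.5, 88.2 and 93.1 CPM in input, 124, 129 and 143 in mock and 131, 147 and 162 in PEG. The rises were 0.56, 0.58 and 0.59 in the mock, dsRNA and silvestrol pellets (SE 0.10, 0.11 and 0.11, adjusted p = 0.0082, 0.0056 and 0.0052) and 0.72 ± 0.12 (adjusted p = 0.0017) in PEG. HSPA1A, which shares most of its reads, gave 0.77 ± 0.13 (adjusted p = 0.0015) in PEG, 0.35 ± 0.12 (adjusted p = 0.044) in silvestrol, 0.33 in mock and 0.32 in dsRNA (adjusted p = 0.053 and 0.056, or 0.0024 and 0.015 with the block). HSPA1B counts were 0.862 to 0.949 times those of HSPA1A in input, 1.03 to 1.10 times in mock, dsRNA and silvestrol, and 0.844 to 0.886 times in PEG. HSPA1L, next to them on chromosome 6, passed in no comparison (0.10 in mock, 0.42 in PEG), but for PEG against input with the block (adjusted p = 0.046).

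HSPA8, the constitutive HSP70 that also uncoats clathrin vesicles, was at 1114, 988 and 956 CPM in input, 848, 727 and 692 in mock, 690.4, 573 and 568 in dsRNA and 769, 689.9 and 723 in silvestrol. No library of these pellets overlapped input, and dsRNA had the lowest values. Against input, HSPA8 was at -0.40, -0.70 and -0.46 in the mock, dsRNA and silvestrol pellets (SE 0.13, 0.14 and 0.13, adjusted p = 0.053, 0.0066 and 0.029), and 0.26 ± 0.15 (adjusted p = 0.17) in PEG, and its mock value passed with the block (adjusted p = 0.0004). HSPA4, of the HSP110 exchange factors, followed it with -0.53, -0.66 and -0.64 in the mock, dsRNA and silvestrol pellets (SE 0.22, 0.21 and 0.21, adjusted p = 0.10, 0.037 and 0.044), and with 0.19 ± 0.21 (adjusted p = 0.46) in PEG, and it too passed in mock with the block (adjusted p = 2.9e-05).

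The ER members of the HSPA group were apart from these. HSPA5 (BiP), the main ER HSP70, was at 204, 167 and 176 CPM in input and 224, 220.0 and 229 in mock, without overlap. Its values were 0.34, 0.35 and 0.33 (adjusted p = 0.06, 0.058 and 0.066, or 0.0017, 0.01 and 0.015 with the block). In PEG it was enriched by 0.44 ± 0.14 (adjusted p = 0.025), a call lost under library-size scaling (0.10) and without PEG replicate 3, input replicate 2 or input replicate 3 (adjusted p up to 0.11). HSPA13 (STCH), an ER HSP70 without a substrate-binding domain, was at 42.5, 38.9 and 39.8 CPM in input, 54.9, 52.3 and 68.6 in mock and 25.7, 21.6 and 24.2 in PEG, and the 3 groups did not overlap. It was enriched by 0.57, 0.49 and 0.41 in the mock, dsRNA and silvestrol pellets (SE 0.13, 0.12 and 0.12, adjusted p = 0.015, 0.015 and 0.025) and depleted in PEG, at -0.72 ± 0.13 (adjusted p = 0.002).

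The calls of HSPA13 in mock were lost without mock replicate 3, input replicate 2 or input replicate 3 (adjusted p up to 0.067), and those in dsRNA without dsRNA replicate 3 or either of those inputs (up to 0.074). With the block and all libraries HSPA13 passed in mock (adjusted p = 2.4e-05). HSPA8 and HSPA13 lost their silvestrol calls in 4 of the 6 fits that left out 1 library, without input replicate 2 or 3 or silvestrol replicate 2 or 3 (up to 0.11 and 0.12), and HSPA1A lost its silvestrol call in 5 of 6, all but that without input replicate 1 (up to 0.22). HSPA4 lost its calls without dsRNA replicate 2 or 3, or without silvestrol replicate 2 or 3 (up to 0.12 and 0.13). The mitochondrial HSPA9 (mortalin) and the ribosome-bound HSPA14 passed in no pellet against input in the fit without the block (-0.33 and -0.35 in mock, adjusted p = 0.23 and 0.32, or 0.0013 and 0.00099 with it).

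The chaperonin subunits separated in PEG. HSPD1 (HSP60), which forms the barrel, and HSPE1 (HSP10), which forms its lid, are transcribed in opposite directions from neighbouring starts on chromosome 2, and their annotated exons overlap by 281 bases. HSPE1 was at 460.2, 291 and 319 CPM in input, 325, 244 and 235 in mock and 906, 977 and 1245 in PEG, where every library was above every input library. It was enriched in PEG by 1.58 ± 0.22 (adjusted p = 0.00071), the largest rise of any member there. HSPD1 was at 725, 488 and 499 CPM in input and 630.5, 496 and 538 in PEG, with overlap, and its log2 fold change was nearer to 0 than its SE of 0.20 (adjusted p = 1). HSPE1 counts were 0.596 to 0.640 times those of HSPD1 in input, 0.604 to 0.671 times in mock, 0.754 to 0.811 times in dsRNA, 0.532 to 0.645 times in silvestrol and 1.44 to 2.31 times in PEG. The PEG and dsRNA ratios each lay above all input and all mock ratios (exact permutation p = 0.1 for each). Against input in dsRNA, HSPD1 was depleted (-0.66 ± 0.19, adjusted p = 0.026), a call lost without dsRNA replicate 2 or 3 (adjusted p up to 0.095), and HSPE1 was at -0.35 ± 0.19 (adjusted p = 0.17). With the block both were depleted in mock, dsRNA and silvestrol (adjusted p = 0.00025, 0.00055 and 0.0038 for HSPD1 and 0.00089, 0.024 and 0.0041 for HSPE1).

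Small heat shock proteins and the HSP110 gene HSPH1 were not enriched in mock, dsRNA or silvestrol. HSPB1 was at 1466, 1070.1 and 1148 CPM in input, 1086, 776 and 759.8 in mock and 2699, 3084 and 3099 in PEG, where it rose by 1.31 ± 0.18 (adjusted p = 0.00066) without overlap. In mock it was at -0.46 ± 0.19 (adjusted p = 0.10), and it passed with the block (adjusted p = 0.00011). HSPB8, a partner of BAG3 in clearing misfolded protein, passed nowhere without the block (-0.33 in mock, -0.08 in PEG, adjusted p = 0.0067 in mock with it). HSPB6 had 4 to 85 counts per library and fell in PEG (-1.40 ± 0.48, adjusted p = 0.036), a call lost without PEG replicate 3 or input replicate 3 (adjusted p up to 0.06). HSPH1 (HSP105) was at 243, 128 and 136 CPM in input and 116, 65.6 and 95.8 in PEG. It was depleted in silvestrol (-0.76 ± 0.24, adjusted p = 0.039) and in PEG (-0.84 ± 0.29, adjusted p = 0.041), and both calls were lost in 3 of the 6 fits without 1 library: without any silvestrol replicate, and without PEG replicate 2 or 3 or input replicate 1 (adjusted p up to 0.11 and 0.11). With the block it was depleted in mock and dsRNA as well (adjusted p = 7.5e-06 and 0.0028).

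The 3 genes that share only the prefix went separate ways. HSPBP1, an HSP70 exchange factor, was at 51.3, 51.6 and 61.9 CPM in input, 106, 99.7 and 100.3 in mock and 117, 123 and 117 in PEG, and it was enriched by 0.93, 0.94 and 0.94 in the mock, dsRNA and silvestrol pellets (SE 0.11, 0.15 and 0.12, adjusted p = 0.0036, 0.0035 and 0.0024) and by 1.16 ± 0.12 (adjusted p = 0.00027) in PEG. HSPB11 (IFT25), a subunit of the intraflagellar transport complex, was at 65.6, 39.3 and 39.1 CPM in input, 27.0, 22.2 and 22.3 in mock and 70.2, 79.4 and 86.4 in PEG. It was depleted, at -0.97, -1.05 and -1.02 in the mock, dsRNA and silvestrol pellets (SE 0.22, 0.21 and 0.21, adjusted p = 0.015, 0.0067 and 0.0077) and enriched in PEG by 0.75 ± 0.22 (adjusted p = 0.02). The mock call was lost without mock replicate 2 or 3 (adjusted p up to 0.064), and the PEG call without PEG replicate 2 or 3 or input replicate 2 or 3 (up to 0.072) and under library-size scaling (0.42). HSPBAP1, which binds HSPB1, was at -0.28 ± 0.14 (adjusted p = 0.16) in mock, or an adjusted p of 0.034 with the block, and 0.58 ± 0.15 (adjusted p = 0.01) in PEG, the latter call being lost without PEG replicate 3 (adjusted p = 0.079).

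Of the DNAJA and DNAJB genes, which encode the general HSP40 partners of HSP70, 4 and 10 were kept, and without the block edgeR called none enriched in mock, dsRNA or silvestrol. With it DNAJB2 was enriched in all 3 pellets (adjusted p = 3.1e-05, 0.0012 and 0.001) and DNAJB13, on 8 to 57 counts, in silvestrol (adjusted p = 0.01). In each of these pellets 2 of 4 DNAJA and 3 of 10 DNAJB genes were depleted, where 15.8%, 19.6% and 18.1% of all genes were. DNAJA1, an HSF1 target and cytosolic partner of HSPA8, was at 608, 391 and 408 CPM in input, 289.7, 209 and 221 in mock, 252, 212 and 219 in dsRNA and 725, 737 and 785 in PEG. Every mock library was below and every PEG library above all input libraries. DNAJA1 was at -0.93, -1.0 and -0.95 in the mock, dsRNA and silvestrol pellets (SE 0.21, 0.19 and 0.20, adjusted p = 0.015, 0.0058 and 0.0082) and 0.71 ± 0.20 (adjusted p = 0.015) in PEG. The mock call was lost without mock replicate 2 or 3 (adjusted p up to 0.068), and the PEG call without PEG replicate 3 or input replicate 2 or 3 (up to 0.056) and under library-size scaling (0.38). With the block and all libraries DNAJA1 passed in mock (adjusted p = 1.5e-08).

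DNAJA2, its close relative, was depleted, at -0.69, -0.71 and -0.78 in the mock, dsRNA and silvestrol pellets (SE 0.14, 0.14 and 0.14, adjusted p = 0.0099, 0.0062 and 0.0052) and was at 0.28 ± 0.15 (adjusted p = 0.15) in PEG. DNAJB6, which suppresses aggregation of polyglutamine proteins, was depleted, at -0.63, -0.73 and -0.66 in the mock, dsRNA and silvestrol pellets (SE 0.17, 0.16 and 0.16, adjusted p = 0.026, 0.0098 and 0.017) and was at -0.18 in PEG. DNAJB9 (ERdj4), an ER partner of BiP, was at 10.3, 8.88 and 8.58 CPM in input and 5.32, 5.62 and 5.63 in dsRNA, and it was depleted, at -0.48, -0.70 and -0.57 in the mock, dsRNA and silvestrol pellets (SE 0.15, 0.14 and 0.15, adjusted p = 0.046, 0.0074 and 0.02). The mock call of DNAJB9 was lost in all 6 fits without 1 library, and its silvestrol call without silvestrol replicate 2 (adjusted p up to 0.14 and 0.071). With the block and all libraries DNAJB9 passed in mock (adjusted p = 0.0025). The mock and silvestrol calls of DNAJB6 were lost without replicate 2 or 3 of either pellet (up to 0.098 and 0.069). DNAJB1 (HSP40), the main heat-inducible J-domain protein, was at 439, 295 and 322 CPM in input and 360.3, 231 and 224 in mock, with overlap, and passed in no pellet (-0.34 in mock, -0.19 in PEG, adjusted p = 0.29 and 0.42, with 0.0012 in mock under the block).

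Among the 26 DNAJC genes, 3 were enriched in mock, dsRNA and silvestrol, namely DNAJC2, DNAJC21 and DNAJC5, against 17.6%, 21.1% and 19.4% of all genes. In the same pellets 4, 6 and 5 of the 26 were depleted, against 15.8%, 19.6% and 18.1% of all genes. With the block DNAJC25 was also enriched in mock (adjusted p = 0.033). DNAJC2 (MPP11), which tethers HSP70 to the ribosome, was at 56.9, 33.1 and 30.6 CPM in input, 97.4, 87.7 and 78.2 in mock and 74.8, 64.8 and 79.7 in PEG, where neither pellet overlapped input. It was enriched by 1.17, 1.24 and 1.03 in the mock, dsRNA and silvestrol pellets (SE 0.24, 0.26 and 0.25, adjusted p = 0.011, 0.0074 and 0.015) and by 0.90 ± 0.24 (adjusted p = 0.014) in PEG. DNAJC21, needed for the maturation of the large ribosomal subunit, was at 197, 113 and 117 CPM in input, 232, 209.9 and 228 in mock and 262, 272 and 248 in dsRNA. It was enriched by 0.68, 0.91 and 0.79 in the mock, dsRNA and silvestrol pellets (SE 0.22, 0.22 and 0.22, adjusted p = 0.047, 0.013 and 0.025) and was at 0.10 ± 0.23 (adjusted p = 0.75) in PEG.

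DNAJC5 (cysteine string protein), the chaperone of synaptic and secretory vesicles, was at 83.9, 60.2 and 60.2 CPM in input and 149.7, 86.5 and 95.1 in mock. It was enriched by 0.73, 0.86 and 0.79 in the mock, dsRNA and silvestrol pellets (SE 0.24, 0.24 and 0.24, adjusted p = 0.048, 0.024 and 0.036) and was at 0.09 ± 0.17 (adjusted p = 0.68) in PEG. In mock, the calls of DNAJC21 and DNAJC5 were lost in 5 of the 6 fits without 1 library, all but that without input replicate 1 (adjusted p up to 0.17 and 0.15). With the block and all libraries both passed in mock (adjusted p = 6.2e-06 and 5.7e-07). In dsRNA, DNAJC21 lost its call without input replicate 3, and DNAJC5 without input replicate 2 or 3 (up to 0.056 and 0.082). In silvestrol, DNAJC21 again lost it in all but the fit without input replicate 1, DNAJC5 without input replicate 2 or 3 or silvestrol replicate 1, and DNAJC2 without input replicate 2 or 3 or silvestrol replicate 2 (up to 0.10, 0.12 and 0.058). DNAJC2 lost its PEG call without PEG replicate 3 (adjusted p = 0.051).

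Of 6 members that act in the nucleus, in splicing or on ribosomes, DNAJC2 and DNAJC21 were enriched and DNAJC1 and DNAJC8 depleted in mock, dsRNA and silvestrol. Over all genes 17.6%, 21.1% and 19.4% were enriched and 15.8%, 19.6% and 18.1% depleted in these pellets. DNAJC1, DNAJC2 and DNAJC17 were enriched in PEG, where 25.5% of all genes were. DNAJC8, a spliceosome component, was at 185, 118 and 122 CPM in input and 96.1, 76.0 and 73.4 in mock, and it was depleted, at -0.75, -0.81 and -0.80 in the mock, dsRNA and silvestrol pellets (SE 0.20, 0.19 and 0.18, adjusted p = 0.027, 0.012 and 0.013). It was at 0.06 in PEG, and its calls were lost without mock replicate 2 or 3, dsRNA replicate 3 or silvestrol replicate 3 (adjusted p up to 0.10, 0.051 and 0.051). DNAJC17, also linked to splicing, was at 19.0, 22.7 and 22.7 CPM in input, 17.8, 21.6 and 19.9 in mock and 44.8, 56.1 and 58.7 in PEG, and it passed in PEG alone of the 4 pellets (1.36 ± 0.14, adjusted p = 0.00027). Of its exons 20.43% overlap those of GCHFR on the opposite strand, a gene with 4 to 55 counts per library. A further 1.95% overlap those of ZFYVE19 on that strand, with 1373 to 6389 counts, against 423 to 1186 for DNAJC17.

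Of 10 members with mitochondrial products, none was enriched in mock, dsRNA or silvestrol, with 1, 3 and 1 depleted (7, 5 and 6 with the replicate block), and in PEG 5 were enriched and 1 was depleted. Over all genes 15.8%, 19.6% and 18.1% were depleted in mock, dsRNA and silvestrol (30.1%, 29.1% and 28.7% with the block), and 25.5% were enriched and 25.9% depleted in PEG. The median of these 10 log2 fold change was -0.31 in mock and 0.66 in PEG. DNAJC19, of the inner membrane import motor, was at 41.5, 40.9 and 43.1 CPM in input, 28.2, 29 and 26.6 in mock and 67.3, 83.7 and 75.1 in PEG, without overlap of any of the 3 groups. It was depleted, at -0.55, -0.67 and -0.71 in the mock, dsRNA and silvestrol pellets (SE 0.10, 0.11 and 0.11, adjusted p = 0.0072, 0.0039 and 0.0037) and enriched in PEG by 0.90 ± 0.12 (adjusted p = 0.00063), and these calls held without any 1 library. DNAJC30, a mitochondrial protein linked to the respiratory chain, was at 12.4, 13.6 and 13.7 CPM in input and 25.8, 32.8 and 32.0 in PEG and rose there by 1.24 ± 0.13 (adjusted p = 0.0003). It was depleted in dsRNA (-0.42 ± 0.14, adjusted p = 0.044), a call lost in 4 of 6 fits, without dsRNA replicate 2 or 3 or input replicate 2 or 3 (adjusted p up to 0.16), and with the block it passed in mock and silvestrol too (adjusted p = 0.017 and 0.019). Of the DNAJC30 exons 14.45% overlap those of BUD23 on the opposite strand, a gene with 3139 to 5715 counts per library. DNAJC30 itself had 276 to 664 counts. DNAJC4 rose in PEG by 1.01 ± 0.20 (adjusted p = 0.0033). DNAJC11, of the cristae-organising complex, was the 1 that fell in PEG, from 52.7, 32.2 and 37.9 CPM in input to 23.1, 15.7 and 16.2 (-1.12 ± 0.23, adjusted p = 0.0041), and 27.92% of its exons overlap THAP3 on the opposite strand. With the block DNAJC11 was also depleted in mock (adjusted p = 0.025).

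Of 4 members that act on vesicles and clathrin, 3 were depleted in PEG, as were 25.9% of all genes. The median log2 fold change of the 4 was -1.15 in PEG, and DNAJC5 alone was enriched in mock, where 17.6% of all genes were. DNAJC13 (RME-8), an endosomal protein, was at 88.5, 50.5 and 53.2 CPM in input, 80.7, 54.9 and 58.3 in mock and 32.8, 19.7 and 24.9 in PEG, where all libraries were below input (-1.28 ± 0.27, adjusted p = 0.0044). DNAJC27, a small GTPase with a J domain, was at 13.2, 12.2 and 11.1 CPM in input and 4.21, 4.40 and 3.96 in PEG (-1.5 ± 0.16, adjusted p = 0.00029). DNAJC6 (auxilin), which brings HSPA8 to clathrin coats, was at 14.3, 11.7 and 12.7 CPM in input, 13.2, 9.74 and 10.9 in mock, 12.9, 10.0 and 11.2 in dsRNA and 7.66, 6.08 and 4.75 in PEG. It fell in PEG (-1.03 ± 0.20, adjusted p = 0.003) and was at -0.16, -0.14 and -0.19 in the other pellets (adjusted p = 0.48, 0.50 and 0.38). The PEG calls of these 3 genes held without any 1 library and under library-size scaling.

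Of 13 members with ER products, 2 were enriched (HSP90B1 and HSPA13) and 3 depleted (DNAJB9, DNAJB11 and DNAJC1) in each of mock, dsRNA and silvestrol, and 4 were enriched and 4 depleted in PEG. The all-gene shares were 17.6% and 15.8% in mock, 21.1% and 19.6% in dsRNA, 19.4% and 18.1% in silvestrol and 25.5% and 25.9% in PEG. DNAJB11 (ERdj3) and DNAJC1 (ERdj1), both partners of BiP, were depleted in mock, at -0.35 ± 0.10 (adjusted p = 0.033) and -0.44 ± 0.12 (adjusted p = 0.028), and enriched in PEG by 0.79 ± 0.12 (adjusted p = 0.0012) and 0.89 ± 0.13 (adjusted p = 0.00076). Both mock calls were lost without input replicate 2 or 3 or mock replicate 2 or 3 (adjusted p up to 0.12 and 0.075). The dsRNA calls were lost without input replicate 2 or 3 or dsRNA replicate 2, and for DNAJB11 also without dsRNA replicate 3 (up to 0.12 and 0.07). Both silvestrol calls were lost in all fits but that without input replicate 1 (up to 0.14 and 0.10), and the PEG calls held in all 6 fits without 1 library. DNAJC3 (P58IPK), an ER co-chaperone also known as an inhibitor of PKR, was at 12.4, 9.67 and 10.6 CPM in input, 12.4, 10.3 and 10.2 in mock and 11.4, 10.9 and 11.2 in dsRNA, and passed in none of the 4 pellets (0.05, 0.08, -0.13 and -0.19). The 21 DNAJ members outside the naming rule ranged from -1.05 to 0.60 in mock, where without the block none was enriched and 3 were depleted (DNAJB11, DNAJC1 and DNAJC12, the last on 12 to 39 counts and lost in 5 of the 6 fits without 1 library, all but that without input replicate 2, with an adjusted p up to 0.11). In PEG they ranged from -0.85 to 0.89, with 4 enriched (DNAJB2, a call lost in all fits without 1 library but that without input replicate 1, with an adjusted p up to 0.12, DNAJB11, DNAJC1 and DNAJC15) and 4 depleted (DNAJB14, DNAJC10, DNAJC14 and DNAJC24).

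Composition offsets, computed for the members under the naming rule, ended some of their calls. With an offset for GC content fitted in each library, HSPBP1 was at 0.39, 0.32 and 0.34 in mock, dsRNA and silvestrol, HSPA1B at 0.23, 0.19 and 0.22, and DNAJC5 at 0.44, 0.49 and 0.46, and none of these passed. The mock calls of DNAJB9 and DNAJC8, the dsRNA calls of HSPA4 and HSPD1, the silvestrol calls of HSPA1A, HSPA4, HSPA8, HSPA12B, HSPH1 and DNAJB9, and the PEG call of HSPH1 ended too, with HSPA1A at -0.06. With an offset for gene length, the PEG calls of DNAJA1, HSPA6, HSPA12A, HSPB11 and HSPH1 ended, as did the mock calls of DNAJB9, DNAJC5 and DNAJC21, the silvestrol call of DNAJC21 and the dsRNA call of DNAJC30. Scaling by library size ended the mock calls of DNAJB9 and DNAJC1, the dsRNA calls of DNAJB11 and DNAJC30, the silvestrol calls of DNAJB11 and DNAJC1, and the PEG calls of HSPA5, HSPA6, HSP90AA1, HSP90B1, HSPB11, HSPBAP1, DNAJA1 and DNAJB2. HSP90AA1, HSP90B1 and DNAJC2 kept their mock, dsRNA and silvestrol calls under both offsets.

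Direct tests between pellets ask whether a stressor changed what the mock reaction already pelleted. No member passed for dsRNA against mock, silvestrol against mock or dsRNA against silvestrol in edgeR (0% of all genes passed in each) or in DESeq2, which called 0% of all genes higher in each and 0.385%, 0% and 0.409% lower. At an unadjusted edgeR p under 0.05, 1 member was lower in dsRNA than in mock (HSPA8) and none was higher, against 2.09% and 0.163% of all genes. None passed at that p for silvestrol against mock (0.126% of all genes higher and 0.0843% lower) or dsRNA against silvestrol (0.163% and 1.82%). With the replicate block, HSPA8 was lower in dsRNA than in mock, at -0.31 ± 0.06 (adjusted p = 0.00055), as was HSPD1, at -0.24 ± 0.06 (adjusted p = 0.023), and DNAJC21 was higher by 0.22 ± 0.06 (adjusted p = 0.037). That is 1 member up and 2 down, against 0.15% and 2.65% of all genes. HSPA8 was lower in dsRNA in each of the 3 same-numbered pairs (690.4, 573 and 568 against 848, 727 and 692 CPM), and DNAJC21 was higher in each (262, 272 and 248 against 232, 209.9 and 228 CPM).

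Against silvestrol with the block, dsRNA had less HSPA8 (-0.25 ± 0.06, adjusted p = 0.0058), HSPD1 (-0.21 ± 0.05, adjusted p = 0.024) and DNAJC22 (-0.31 ± 0.08, adjusted p = 0.016), and more DNAJC2 (0.20 ± 0.05, adjusted p = 0.043). DNAJC22 encodes a membrane J-domain protein and was at 11.2, 13.1 and 13.3 CPM in dsRNA and 12.9, 18.0 and 16.1 in silvestrol. These 4 members compare with 0.235% of all genes higher and 2.49% lower. For silvestrol against mock no member passed with the block (0.012% and 0% of all genes). In these 3 comparisons no log2 difference of a member without the block was over 0.39 in size, the value of DNAJC28 for dsRNA against mock and of HSPB6 for dsRNA against silvestrol (adjusted p = 1 for both).

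PEG against mock gave the most calls, among all genes as among the members, so their number is no result about the members. In edgeR 24 were higher in PEG (37.5%, against 31.3% of all genes) and 16 lower (25%, against 32.2%), with a member median of 0.21 and an all-gene median of -0.03. By library size alone the split was 16 higher and 24 lower (18.8% and 49.8% of all genes). With an offset for gene length it was 26 and 10, for which shares of all genes are not given here. The highest values were those of HSPE1 (2.03 ± 0.19, adjusted p = 1.6e-05), DNAJC12 (1.86 ± 0.32, adjusted p = 0.00065, on few counts) and HSPB1 (1.83 ± 0.19, adjusted p = 2.9e-05), followed by HSPB11 and DNAJA1 (1.71 ± 0.16, adjusted p = 1.7e-05). The lowest values were those of DNAJC27 (-1.41 ± 0.18, adjusted p = 0.0001), DNAJC13 (-1.26 ± 0.21, adjusted p = 0.00059), HSPA12B (-1.23 ± 0.15, adjusted p = 8.1e-05) and HSPA13 (-1.23 ± 0.14, adjusted p = 5.1e-05). HSP90AB1 was higher in PEG by 0.83 ± 0.18 (adjusted p = 0.0024), whereas HSP90AA1 and HSP90B1 were lower, at -0.56 ± 0.17 (adjusted p = 0.018) and -0.76 ± 0.16 (adjusted p = 0.0022). The call of HSP90AB1 was lost under library-size scaling (0.37), and that of HSP90AA1 without PEG replicate 1 or 2 (adjusted p up to 0.069) and with an offset for gene length (-0.42). Without PEG replicate 2, 10 members were lower in PEG, and the share of all genes in that fit is not given here.

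Members in PEG lay along gene length, as genes in general did. Spearman's rho between summed exon length and log2 fold change across the 64 members was -0.423 for PEG, against -0.481 across all 16612 genes, and 0.124 for mock, against 0.182. The 21 members enriched in PEG had a median length of 3236 bases and the 12 depleted ones of 6986 bases. In mock the 10 enriched and 10 depleted members had medians of 4441 and 3062 bases. HSPE1 (1977 bases) and HSPB1 (1634 bases) are among the shortest members and DNAJC13 (9562 bases) among the longest. HSPB6 (1722 bases) and DNAJC17 (5634 bases) lay off this order. Genes share libraries and are not independent replicates, so these values are descriptions.

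For mock, rho across members was 0.338 with coding length and 0.40 with GC content at the third codon position, and across the 13503 genes with a coding transcript it was 0.426 and 0.421. Short coding sequences in members depleted there include DNAJC19 (348 bases) and HSPB11 (642 bases), while HSP90AA1 and HSP90B1 have 2562 and 2409 bases. HSP90AB1, with 2172 coding bases, was not enriched, and DNAJC5, with 594, was. All these lengths are those of the longest coding transcript of each gene, and other transcripts of a gene can have shorter coding sequences. The share of Lys, Glu and Asp codons, which was 28.5% in HSP90AA1, 30.7% in HSP90AB1 and 31.0% in HSP90B1, gave a rho of -0.0847 across members.

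Targets of known transcriptional programmes were called in both directions. Of 12 kept targets of HSF1, 3 were enriched (HSP90AA1, HSPA6 and HSPA1B) and 1 depleted (DNAJA1) in mock, with a median log2 fold change of -0.36, and with the replicate block 4 and 8 passed, or 4 and 8 in dsRNA and 4 and 7 in silvestrol. Of all genes, 17.6% were enriched and 15.8% depleted in mock, or 32.5% and 30.1% with the block. With it the all-gene shares were 31% and 29.1% in dsRNA and 30.8% and 28.7% in silvestrol. In PEG 7 were enriched and 1 was depleted, against 25.5% and 25.9% of all genes, with a median of 0.72. Of 7 targets of the unfolded protein response, 2 were enriched and 2 depleted in mock and 3 and 2 in PEG, with medians of 0.05 and -0.19.

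Genes that work with the members but bear other names were counted from lists of exchange factors, HSP90 co-chaperones, further J-domain proteins, regulators and the collagen chaperone SERPINH1. Of 36 such genes, 6 were enriched and 13 depleted in mock, 5 and 12 in dsRNA, 6 and 14 in silvestrol, and 13 and 9 in PEG (edgeR), with 21, 19 and 19 depleted in mock, dsRNA and silvestrol under the replicate block. The shares of all genes were 17.6% and 15.8% in mock, 21.1% and 19.6% in dsRNA, 19.4% and 18.1% in silvestrol and 25.5% and 25.9% in PEG, with 30.1%, 29.1% and 28.7% depleted under the block. Their median log2 fold change was -0.34 in mock and 0.12 in PEG. HYOU1, the ER HSP110, followed HSPA13, with 0.72 ± 0.13 (adjusted p = 0.0076) in mock and -0.87 ± 0.13 (adjusted p = 0.00087) in PEG. STIP1 (HOP), which links HSP70 to HSP90, was at -0.77 ± 0.19 (adjusted p = 0.019) and 0.57 ± 0.17 (adjusted p = 0.022), and ST13 (HIP), another HSP70 partner, at -0.65 ± 0.11 (adjusted p = 0.0056) and 0.13 ± 0.12 (adjusted p = 0.39). UNC45A, a myosin chaperone that binds HSP90, was enriched in both, by 0.95 ± 0.10 (adjusted p = 0.0036) and 0.45 ± 0.10 (adjusted p = 0.0067). GAK, the ubiquitous relative of DNAJC6 with a J domain, was at 0.76 ± 0.10 (adjusted p = 0.0036) in mock and -0.44 ± 0.11 (adjusted p = 0.0076) in PEG. HSF1 itself was at -0.06 ± 0.11 (adjusted p = 0.68) and -0.07 ± 0.12 (adjusted p = 0.66). These genes were chosen as examples after their values were seen.

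The 13 genes with a matching symbol that were not kept had low counts. HSPA2, HSPA4L, HSPB2, HSPB3, HSPB7, HSPB9, HSPB2-C11orf52, DNAJB7, DNAJB8, DNAJC5B and DNAJC25-GNG10 never had more than 15 counts in a library. Just outside the filter were DNAJC5G (0 to 69 counts) and HSPE1-MOB4 (2 to 16), which passed in 3 of the 5 conditions, and just inside it were DNAJB13 (8 to 57), DNAJC12 (12 to 39) and HSPB6 (4 to 85). Among kept members, 13 have named pseudogenes in the annotation, which took at most 0.853% of the counts of gene and pseudogenes together (for DNAJC19), and for 17 members part of the exons overlap a protein-coding gene on the opposite strand. Since the strand setting of the counting is not given in the sources used here, reads in such overlaps cannot be told apart.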

How the data were processed

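Per the submitters' processing notes, Trimmomatic 0.36, STAR 2.5.2b and featureCounts of Subread 1.5.2 were used with GRCh38, and the authors deposited raw counts of reads per gene for each library, with no normalization. The strand setting of the counting is not given in the sources used here. Gene symbols, biotypes, exons and coding sequences were taken from GENCODE release 29, and 60 of the 64 member genes have the same start and end there as in the count files. Trimming, alignment and the handling of multi-mapping reads were fixed upstream and can lower the counts of near-identical genes.

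The members, the gene lists by role and compartment and the list of other chaperone genes were chosen with earlier results of these data known. Genes with at least 10 counts in 2 replicates per condition entered (16612 of 57500). Each comparison was fitted on its 6 libraries over all these genes with TMM scaling and edgeR 4.0.16 (R 4.3.3), by the quasi-likelihood F test with Benjamini-Hochberg adjustment and a threshold of 0.05. Standard errors are the log2 fold change divided by the square root of F. CPM used TMM factors over all 15 libraries. The labels number biological replicates. Deviations of same-numbered libraries from their group means correlated at 0.131 to 0.861 in every pair of groups (other numbers -0.746 to 0.583). These ranges overlap. Replicate 1 stood apart from replicates 2 and 3, whereas input 2 and mock 3 correlated at 0.583 and input 3 and mock 3 at 0.554. The values thus do not settle whether replicates 2 and 3 are paired by number, and a replicate block was fitted as an alternative. Ratios of gene pairs were compared by exact two-sided permutation tests. Named genes were all HSP members, the 4 largest rises and falls among called DNAJ members in each pellet whose mean log2 CPM reached 2, DNAJA1, DNAJB1, DNAJB9, DNAJC3 and DNAJC6, and members called between stressors. Others were named after their values were seen.

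Alternatives were DESeq2 1.42.0, its size factors in edgeR, library size only, a filter in any 1 condition or none, all 5 groups in 1 fit, offsets for GC content or length, the block with and without the GC offset, and leaving out each library. The tests were tried on simulated data first. With 15341973 to 46939993 counts per library, p-values rest on the spread between 3 replicates. Genes that failed the filter were not tested.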

Additional observations from a re-analysis of the deposited data

Results flagged for a closer look

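Of the members, 6 were called in opposite directions in the mock and the PEG pellets against the same input libraries. The share of all genes called so is not given here, so the 6 are no result about the members as a whole. They were picked by calls on these same libraries, so their PEG against mock values are descriptions and no independent test. DNAJA1 (log2 fold change of PEG against mock 1.71), DNAJB11 (1.20), DNAJC1 (1.39), DNAJC19 (1.504) and HSPB11 (1.79) were depleted in mock and enriched in PEG. HSPA13 (-1.23) was enriched in mock and depleted in PEG. In edgeR the adjusted p was at most 5.08e-05 in each case, and the PEG and mock libraries did not overlap. The call of PEG against mock held in every fit without 1 library and by library size alone. The way these genes were picked favours such values. PEG libraries held 15341973 to 25675182 counts and mock libraries 32477292 to 39903656, and the part of depth in these values was not tested.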

How the results depend on the processing

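With the replicate block, 29 members were depleted in mock, 24 in dsRNA and 25 in silvestrol (30.1%, 29.1% and 28.7% of all genes). In dsRNA 1 was higher and 2 lower than in mock (0.15% and 2.65% of all genes), and 1 higher and 3 lower than in silvestrol (0.235% and 2.49%). With the block and a GC offset the counts were 17 enriched and 25 depleted in mock, 16 and 25 in dsRNA, 24 depleted in silvestrol, 1 and 2 for dsRNA against mock and 1 and 3 for dsRNA against silvestrol. A GC offset alone left 7 enriched in silvestrol, and a length offset left 10 lower in PEG than in mock. Library size alone gave 13 enriched and 21 depleted in PEG (14.1% and 41.5% of all genes). Shares of all genes with a GC or length offset are not given here, so those counts are no result about the members. The length of the longest transcript gave a rho of 0.336 for mock, 0.279 for dsRNA, 0.308 for silvestrol and -0.43 for PEG. HSPA1A in silvestrol became -0.061 with the GC offset and -0.047 with the block added, HSPA1A in PEG against mock became -0.0053 with the length offset, and HSPBP1 in PEG against mock became -0.17 by library size and -0.32 with the length offset. The cause was not tested.

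Leaving out 1 library at a time gave 7 to 12 enriched and 2 to 15 depleted members in mock, 7 to 13 and 8 to 18 in dsRNA, 6 to 12 and 5 to 14 in silvestrol, 13 to 33 and 10 to 14 in PEG, 22 to 34 and 10 to 16 in PEG against mock, and 0 among dsRNA, silvestrol and mock. These ranges stand without the shares of all genes in the same fits and are no result about the members. Over these fits, added after the data were seen, rho with length was 0.103 to 0.17 for mock, 0.045 to 0.0981 for dsRNA, 0.0783 to 0.119 for silvestrol and -0.444 to -0.413 for PEG. Of 1130 values of 113 named calls under the other settings, 1061 stayed past the threshold in the same direction, 64 fell short of it and 5 changed sign, and of 678 without 1 library 567 stayed and 111 fell short. The replicate block alone ended none of these calls. With 3 replicates and 4 to 85 counts for members such as HSPB6, small differences were not detectable.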
